A study of Mus musculus with 2 samples.

Results

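The TGF-beta and BMP signalling genes described here are 10 genes chosen by symbol, out of 55536 mouse genes in the deposited tables: the ligands Tgfb1, Tgfb2, Tgfb3, Bmp4 and Bmp6, the receptors Tgfbr1, Tgfbr2, Tgfbr3 and Bmpr2, and the intracellular transducer Smad3. The rule that picks them uses symbols and no measured value. Total RNA was sequenced from hearts of male B6CASTF1/J mice, a C57BL/6J by CAST/EiJ F1 hybrid, aged 4 days, in 2 libraries of 1 group. Both hearts had the same genotype, sex, age and tissue and no treatment is named, so the libraries give levels and their spread but no contrast between conditions. The labels number the animals differently but cite a single donor record. If both libraries came from 1 animal, the spread would be technical only.

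TGF-beta and BMP ligands are secreted dimers that bring together type I and type II serine/threonine kinase receptors on the cell surface. The activated type I receptor phosphorylates receptor-regulated Smads, which join Smad4 and enter the nucleus. In the developing heart the TGF-betas are known for endocardial cushion remodelling and for fibroblast activation and matrix production, and the BMPs for myocardial growth, valve and septum formation and endothelial signalling.

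The libraries held 31512596 (replicate 1) and 35744013 (replicate 2) expected counts on mouse genes. Levels are TPM, which divides counts by transcript length and scales them to the library, given as mean ± SD with n = 2. Where a pair of values stands without library names, replicate 1 comes before replicate 2. The hearts are set against each other as log2 ratios, replicate 1 over replicate 2, of counts scaled by TMM (a library size correction). Each ratio has an exact 95% interval that covers counting error only. They compare 1 heart with 1 and carry no p-value, since an exact sign-flip test of 2 values cannot fall below 0.5. All 8 cardiomyocyte, 8 fibroblast, 8 endothelial, 8 epicardial and 8 mural markers reached 1 TPM in both libraries and 0 of 8 T cell and thymus and 0 of 8 lung markers did. Marker levels differed between the hearts. Fibroblast markers summed to 1205 TPM in replicate 1 and 1689 TPM in replicate 2, with 7 of 8 lower in replicate 1 (median log2 ratio -0.54). All 7 erythroid markers found were lower in replicate 1, with a median of -1.90. Markers of fat stood apart too: Ucp1 had 0 counts in replicate 1 and 396 in replicate 2, Plin1 had 0 and 116, and Adipoq had 1 and 59. Of the 8 adipose markers the 2 expressed in both, Fabp4 and Cidea, had ratios of -0.05 and -0.15. The 8 summed to 367 TPM in replicate 1 and 369.6 TPM in replicate 2. Fabp4 alone held 340 TPM and 329 TPM of these sums, so they do not show the gaps in Ucp1, Plin1 and Adipoq. Of the 8 valve and cartilage markers 5 passed the filter on low counts and all 5 were lower in replicate 1 (median -0.36), with Col2a1, at 16 and 60 counts, past 2-fold. The part of these markers in the results on the 10 genes was not tested. The filter drops genes with counts in 1 heart only, such as Ucp1, so they enter no count of ratios. In whole tissue, fewer cells of a type and less RNA per cell cannot be told apart.

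All 10 genes were expressed, here 1 TPM or more in each heart, against 23.8% of all mouse genes. The 10 genes are all protein-coding, while the 23.8% also counts genes that are not. The share of protein-coding genes that were expressed was not counted, so this is not read as particular to the 10. Mean levels of the 10 genes spanned a narrow range, from 6.89 TPM for Bmp4 to 23.4 TPM for Tgfbr2, a 3.40-fold span. Their median of 10.3 TPM lay beside a median of 12.25 TPM over the 11867 expressed protein-coding genes. Receptors held the top of the order with Tgfb1. By mean TPM it ran Tgfbr2, Bmpr2, Tgfb1, Tgfbr3, Tgfbr1, Tgfb2, Smad3, Bmp6, Tgfb3 and Bmp4. Of the 9 neighbouring pairs in that order, 3 kept it in both hearts and in a second deposited quantification of the same libraries: Tgfb1 over Tgfbr3, Tgfbr3 over Tgfbr1 and Bmp6 over Tgfb3. For Tgfbr2 over Bmpr2 the log2 ratio of TPM was -0.05 in replicate 1 and 0.17 in replicate 2, so these neighbours were not separated. Tgfbr1, Tgfb2 and Smad3 were not separated either, with mean log2 ratios of 0.02 ± 0.27 for Tgfbr1 over Tgfb2 and 0.0073 ± 0.65 for Tgfb2 over Smad3. Over all 45 pairs of the 10 genes, 36 had the same order in both hearts and 34 had it in both quantifications as well.

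**Figure D1:**
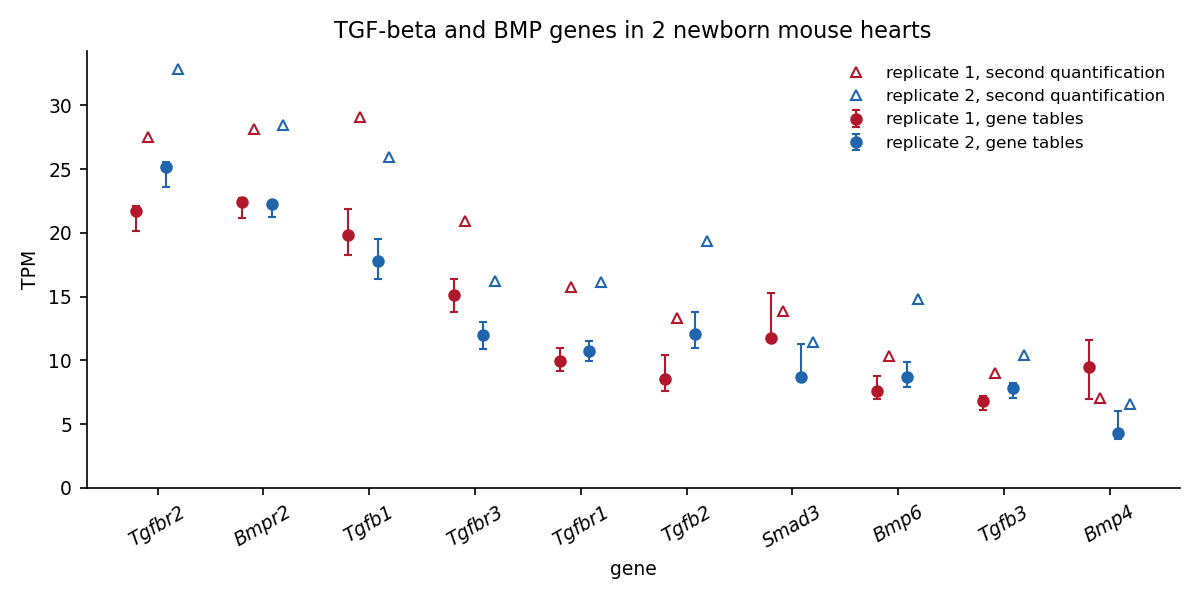
TPM of the 10 genes (horizontal axis, ordered by mean) in replicate 1 (red) and replicate 2 (blue). Filled circles are the gene tables with the deposited TPM bounds as bars, and open triangles are the second quantification. In the gene tables Tgfbr2 and Bmpr2 stand highest and Bmp4 has the widest gap between hearts, 9.50 against 4.28 TPM. The second quantification is higher for most genes.

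Tgfb1, the ligand most often studied in fibrosis and immune regulation (ENSMUSG00000002603.15, chr7:25687002-25705077, plus strand, in GRCm38 as all positions here), had 926 expected counts in replicate 1 and 986 in replicate 2. Its TPM was 19.8 in replicate 1 and 17.8 in replicate 2, a mean of 18.8 ± 1.41. The log2 ratio of 0.03 had an interval of -0.11 to 0.16, and its sign turned under spike-in scaling (-0.02) and with the counts of the second quantification (-0.0086). A difference between the hearts was not detectable at this depth. Among the 3 TGF-beta ligands Tgfb1 was highest in both hearts and both quantifications.

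Tgfb2 (ENSMUSG00000039239.14, chr1:186622792-186705989, minus strand), the TGF-beta ligand whose loss in mice causes heart septum and outflow tract defects, differed most between the hearts by counts. It had 725 expected counts in replicate 1 and 1257 in replicate 2, and a TPM of 8.57 in replicate 1 and 12.1 in replicate 2. The log2 ratio was -0.68 with an interval of -0.81 to -0.54, which is 0.626-fold and short of 2-fold. The gap exceeds counting error. It kept its direction but was smaller in TPM (-0.49, outside that interval) and in the TPM of the second quantification (-0.54). For all 10 genes the TPM ratio lay above the ratio of scaled counts, so this shift is not particular to Tgfb2. The gap was larger by the counts of the second quantification (-0.75) and under spike-in scaling (-0.72). Also lower in replicate 1 were 7 of 8 fibroblast, 7 of 8 epicardial and 7 of 7 erythroid markers. The 5 filtered valve and cartilage markers were lower too. Cardiomyocyte markers were lower for 4 of 8 and endothelial markers for 5 of 8. Of the fat markers, Ucp1, Plin1 and Adipoq were lower, while Fabp4 and Cidea had ratios of -0.05 and -0.15. The part of these markers in the Tgfb2 gap was not tested. Tgfb3 (ENSMUSG00000021253.7, chr12:86056745-86079041, minus strand), known for palate fusion and also made in heart mesenchyme, had 546 and 738 expected counts. With a TPM of 6.84 in replicate 1 and 7.80 in replicate 2 it was the lowest TGF-beta ligand by the TPM of the whole gene. Its log2 ratio was -0.32 (-0.48 to -0.16). On coding transcripts alone Tgfb3 was not separated from Tgfb2, which had 5.81 TPM in replicate 1 and 8.50 TPM in replicate 2.

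Tgfb2 also had 2 coding forms. Tgfb2-201 encodes 414 codons and Tgfb2-206 encodes 442, through an exon of 84 nt at chr1:186690721-186690804 (GRCm38, minus strand) that lies in the coding sequence. The sequence is given, from the GENCODE M21 transcripts and 5′ to 3′, because this exon is what separates the 2 proteins; capitals mark the exon and lower case the 15 bases on either side.
Tgfb2-206 exon: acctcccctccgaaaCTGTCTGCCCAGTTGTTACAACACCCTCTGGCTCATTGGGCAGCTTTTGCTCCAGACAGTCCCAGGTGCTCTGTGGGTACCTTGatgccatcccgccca
Of the TPM on both coding forms, the form with the exon took 8.95% in replicate 1 and 8.12% in replicate 2. In the second quantification it took 31.0% and 25.2%. The hearts thus differed by far less than the quantifications did, and the share of this form is uncertain. The form without the exon led in both hearts and both quantifications. The transcripts also differ at both ends, where 1715 nt belong to Tgfb2-201 alone, so the shares do not rest on the exon alone. Transcripts not annotated as protein-coding, such as those with a retained intron, are called non-coding here. For Tgfb2 they took 5.21% of its expected counts but 32.2% of its TPM in replicate 1, and 4.82% of counts and 29.5% of TPM in replicate 2.

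Bmp4 (ENSMUSG00000021835.15, chr14:46383520-46390669, minus strand), a ligand required for outflow tract and cushion development, was the lowest of the 10 genes by mean TPM. Its counts were nearly equal in the hearts, 191 in replicate 1 and 188 in replicate 2, and the log2 ratio of scaled counts was 0.14 with an interval of -0.16 to 0.44. Its TPM was not equal, at 9.50 in replicate 1 and 4.28 in replicate 2, a log2 ratio of 1.13 or 2.19-fold. The TPM of Bmp4 was the sole value of the 10 genes past 2-fold between the hearts on the TPM scale, where 1.66% of the 13243 expressed genes were called. In the second quantification the TPM was 7.03 in replicate 1 and 6.57 in replicate 2.

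The gap in Bmp4 TPM sits on a short non-coding transcript. Bmp4-204, a retained-intron transcript of 258 nt, was given 15.8 expected counts and 4.09 TPM in replicate 1, against 0 counts in replicate 2. In the second quantification it had 0 counts in both libraries. Of its 258 nt, 234 are shared with the coding transcript Bmp4-201 and 24 are not. The 24 nt lie in the intron before the second exon, at chr14:46387281-46387304 (GRCm38, minus strand), and are shown in capitals since they alone tell this transcript from the coding one.
Bmp4-204 intron end: ATTATATTCAAATATTCATTTTAG
Without non-coding transcripts, Bmp4 had 4.44 TPM in replicate 1 and 3.93 TPM in replicate 2, a log2 ratio of 0.17. Non-coding transcripts took 13.4% of Bmp4 counts and 53.3% of its TPM in replicate 1, and 2.25% of counts and 8.18% of TPM in replicate 2. Both coding transcripts, Bmp4-201 and Bmp4-202, hold the same 408 codons and differ outside the coding sequence. Bmp4-202 was the leading transcript in both hearts, at 46.7% of the gene's TPM in replicate 1 and 73.1% in replicate 2. In the second quantification Bmp4-202 held 55.9% in replicate 1 and 68.7% in replicate 2. In replicate 1 Bmp4-201 had 0 counts in the first tables and 80.2 in the second quantification. Bmp4-202 has 0 nt that Bmp4-201 lacks, so the split between them is uncertain.

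Bmp6 (ENSMUSG00000039004.6, chr13:38345107-38500302, plus strand), an endothelial BMP best known for inducing hepcidin in iron control and expressed in cushions and valves, had 612 expected counts in replicate 1 and 779 in replicate 2. Its TPM was 7.56 in replicate 1 and 8.70 in replicate 2, and the log2 ratio was -0.23 (-0.39 to -0.08). Bmp6 over Bmp4 did not keep its order, with a log2 ratio of TPM of -0.33 in replicate 1 and 1.01 in replicate 2. In coding transcripts alone, Bmp6 was higher in both hearts, 7.14 and 7.55 TPM against 4.44 and 3.93 TPM for Bmp4.

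Set beside the ligands that were not chosen, neither BMP was the leading one. Bmp10, a ligand of heart muscle that drives trabecular growth and signals to endothelium, had 37.0 TPM in replicate 1 and 27.4 TPM in replicate 2. Bmp6 lay below it by a mean log2 ratio of -1.96 ± 0.45 and Bmp4 by -2.30 ± 0.50. Bmp7, which acts redundantly with other BMPs in the heart, had 9.05 and 6.76 TPM and was not separated from Bmp6 (0.05 ± 0.44). Of the 13 other BMP and GDF ligands, 5 were expressed: Bmp10, Bmp7, Bmp2, Bmp5 and Gdf6. Bmp2 had 85 counts in replicate 1 and 191 in replicate 2 and was past 2-fold lower in replicate 1, at a log2 ratio of -1.04. The remaining 8 ligands were below the threshold in at least 1 heart, as were 12 of 15 other TGF-beta and activin family ligands. Of those 15, Inha and Inhba, subunits of inhibin and activin, led at 4.88 ± 0.76 and 4.62 ± 0.13 TPM.

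Tgfbr2, the type II receptor that binds TGF-beta first (ENSMUSG00000032440.13, chr9:116084293-116175360, minus strand), had 2498 expected counts in replicate 1 and 3419 in replicate 2. Its TPM was 21.7 in replicate 1 and 25.1 in replicate 2, a mean of 23.4 ± 2.45 that was above 71.2% of expressed protein-coding genes. The log2 ratio of -0.34 had an interval of -0.41 to -0.26. Tgfbr1 (ENSMUSG00000007613.15, chr4:47353222-47414931, plus strand), the type I kinase that Tgfbr2 activates, was lower than Tgfbr2 in both hearts, with 9.98 TPM in replicate 1 and 10.7 in replicate 2. Its log2 ratio between the hearts was -0.19 (-0.30 to -0.08). Tgfbr2 and Tgfbr1 were both lower in replicate 1 by scaled counts and by TPM, but neither reached 2-fold.

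Tgfbr2 had 2 transcripts, both coding. Tgfbr2-202 holds an exon of 75 nt at chr9:116158271-116158345 (GRCm38, minus strand) that Tgfbr2-201 lacks, and encodes 592 codons against 567. This exon lies in the part of the gene that encodes the outer, ligand-binding side of the receptor. It is printed because it is the coding difference between the forms, with the exon in capitals and 15 bases on either side in lower case.
Tgfbr2-202 exon: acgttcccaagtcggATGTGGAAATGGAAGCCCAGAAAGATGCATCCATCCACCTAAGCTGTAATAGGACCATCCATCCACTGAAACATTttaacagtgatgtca
Of Tgfbr2 TPM, the form with the exon took 29.6% in replicate 1 and 29.1% in replicate 2, a mean of 29.3% ± 0.38. In the second quantification it took 26.7% in replicate 1 and 25.6% in replicate 2. Both transcripts were thus given TPM in both hearts, with Tgfbr2-201 ahead in each. By expected counts the forms were nearly equal, since Tgfbr2-202 is 8092 nt long and Tgfbr2-201 is 3476 nt. Of the 4711 nt found only in Tgfbr2-202, 75 belong to the exon, so most of what separates the transcripts in these data lies at their 3′ end. The shares therefore do not rest on the exon alone, and the share of RNA with the exon is uncertain.

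Tgfbr1 had 4 coding transcripts, and they differ at the start of 1 internal exon. Tgfbr1-201 and Tgfbr1-203 begin it 12 nt earlier than Tgfbr1-202 and Tgfbr1-205, at chr4:47393247-47393258 (GRCm38, plus strand). These 12 nt add 4 codons in the stretch next to the membrane-spanning part, and are printed in capitals with 15 bases on either side for that reason.
Tgfbr1-201 exon start: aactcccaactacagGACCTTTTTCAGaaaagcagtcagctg
Transcripts with the 12 nt took 92.1% of the TPM on the 4 coding transcripts in replicate 1 and 86.1% in replicate 2. In the second quantification they took 71.0% in replicate 1 and 75.4% in replicate 2. The longer form led throughout, but its share moved more with the quantification than between the hearts. Tgfbr1-202 had 0 counts in both libraries by both quantifications, so the form without the 12 nt rests on Tgfbr1-205. That transcript also starts at another first exon and has 384 nt that Tgfbr1-201 lacks.

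Tgfbr3, or betaglycan, the co-receptor that presents the Tgfb2 ligand to Tgfbr2 (ENSMUSG00000029287.14, chr5:107106570-107289629, minus strand), had 1741 expected counts in replicate 1 and 1720 in replicate 2. Its TPM was 15.2 in replicate 1 and 12.0 in replicate 2, and the log2 ratio of counts was 0.13 (0.04 to 0.23). The TPM ratio was larger, at 0.34. Tgfbr3-204, a retained-intron transcript of 1368 nt, had 119 counts in replicate 1 and 79.2 in replicate 2, and took 25.6% of the gene's TPM in replicate 1 and 18.1% in replicate 2. On coding transcripts the ratio was 0.19. Against endoglin (Eng), the endothelial co-receptor of the same family, at 71.8 and 62.5 TPM, Tgfbr3 was lower by a mean log2 ratio of -2.30 ± 0.10.

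Bmpr2, the type II receptor of BMPs whose loss in humans causes pulmonary arterial hypertension (ENSMUSG00000067336.6, chr1:59763400-59879014, plus strand), was the most even of the 10 genes in TPM. It had 22.5 TPM in replicate 1 and 22.3 TPM in replicate 2, from 6578 and 7962 expected counts. By scaled counts its log2 ratio was -0.16, and at that depth the interval was narrow, -0.21 to -0.11. In TPM its ratio was 0.01, on the other side of 0. Among its partner receptors, the type I receptor Bmpr1a stood higher at 47.3 and 48.3 TPM, a mean log2 ratio of -1.09 ± 0.03 for Bmpr2 over Bmpr1a. The activin type II receptor Acvr2a stood lower, and Bmpr2 exceeded it by 1.33 ± 0.13. Acvrl1 (ALK1), which carries BMP9 and BMP10 signals in endothelium, had 10.4 and 9.12 TPM and was not separated from Tgfbr1 (0.08 ± 0.21 for Tgfbr1 over Acvrl1). Of the 6 other type I receptors 4 were expressed, with Acvr1c and Bmpr1b below the threshold, and 2 of 3 other type II receptors were, with Amhr2 below it.

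Smad3, a receptor-regulated Smad of the TGF-beta and activin branch (ENSMUSG00000032402.12, chr9:63646767-63757994, minus strand), had 1222 expected counts in replicate 1 and 1168 in replicate 2. Its TPM was 11.8 in replicate 1 and 8.70 in replicate 2, and the log2 ratio of counts was 0.18 (0.06 to 0.30). In TPM the ratio was 0.43, and 0.30 on coding transcripts. Smad3-203, a non-coding transcript of 406 nt, held 13.3 counts and 1.78 TPM in replicate 1, and 5.49 counts and 0.62 TPM in replicate 2. Smad2, the other receptor-regulated Smad of that branch, was higher than Smad3 in both hearts, at 20.4 and 19.7 TPM (mean log2 ratio of Smad3 over Smad2 -0.98 ± 0.27). The shared partner Smad4 was the highest Smad by mean, at 30.8 ± 1.13 TPM. Of the 7 other Smads 6 were expressed. Smad9 was below the threshold in replicate 2, with 1.10 TPM in replicate 1 and 0.65 in replicate 2.

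By scaled counts, 0 of the 10 genes were past 2-fold between the hearts. Over the 16271 genes that passed the filter on low counts, 2.22% were past 2-fold higher in replicate 1 and 0.842% past 2-fold lower. With shares this low in the background, a count of 0 in 10 genes says nothing particular about them. A ratio below 0 was found for 6 of 10, against 49.6% of filtered genes. Their median log2 ratio was -0.17, against 0.0033 over all filtered genes, and the median absolute log2 ratio was 0.18 for them and 0.19 over all filtered genes. The counting interval held 0 for Tgfb1 and Bmp4 and lay to 1 side of it for the other 8. In TPM Bmpr2 did not stay on its side, as given above. For all 10 genes the TPM ratio lay above the ratio of scaled counts. Tgfb3, which has a single transcript, had -0.32 by counts and -0.19 in TPM. How much of each shift is common to all genes was not tested. The share of all filtered genes whose interval lies to 1 side of 0 was not counted. The intervals cover counting error only, so the 8 are not read as particular to these genes.

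**Figure D2:**
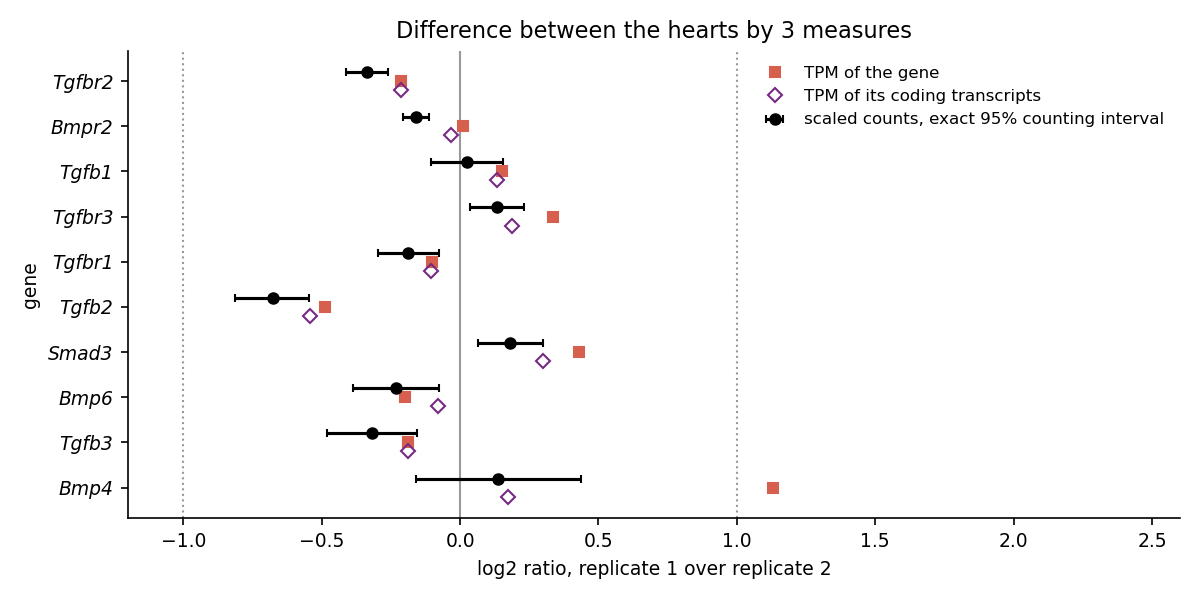
Log2 ratio of replicate 1 over replicate 2 for each gene (vertical axis), by scaled counts with the exact 95% counting interval (black circles), by the gene's TPM (red squares) and by the TPM of its coding transcripts (open purple diamonds). Dotted lines mark 2-fold. Bmp4 is past 2-fold in TPM at 1.13 but at 0.14 by counts and 0.17 in coding transcripts, and Tgfb2 is the lowest by counts at -0.68.

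The deposited bounds of TPM, whose level is not stated, held the TPM of all 10 genes in both libraries. They did not overlap between the hearts for Tgfbr2, Tgfbr3, Tgfb2, Smad3 and Bmp4. How often the bounds stand apart over all genes was not counted, so this is not read as particular to these genes. The second quantification gave higher TPM for 9 of the 10 genes and left Bmp4 at 0.987 times the first. Its values were a median of 1.35 times the first over the 10 genes, beside 1.36 times over all genes compared. For 0 of the 10 genes did the quantifications differ by over 2-fold the same way in both hearts, against 12.6% of 15573 genes. By mean TPM the order of the top 4 genes was the same in both, but it did not hold in each heart. In replicate 1 of the second quantification Tgfb1 had 29.0 TPM, Bmpr2 had 28.1 and Tgfbr2 had 27.5.

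The 10 genes have 38 annotated transcripts, of which 21 are protein-coding. The leading transcript of each gene was a coding one. Hearts and quantifications shared it for all 10 genes, and its share of TPM had a median of 84.9%. Tgfb3 has a single transcript. Bmpr2-201, of 12899 nt, held 94.9% ± 2.03 of Bmpr2, Bmp6-201 held 90.6% ± 5.42 of Bmp6, Smad3-201 held 88.9% ± 5.67 of Smad3 and Tgfb1-201 held 88.0% ± 0.90 of Tgfb1. In the second quantification Tgfb1-201 held 75.2% ± 3.62 and Bmp6-201 held 73.2% ± 16.0. For 7 transcripts there were 0 counts in both libraries of the first tables, and for 4 of them in the second quantification too.

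**Figure D3:**
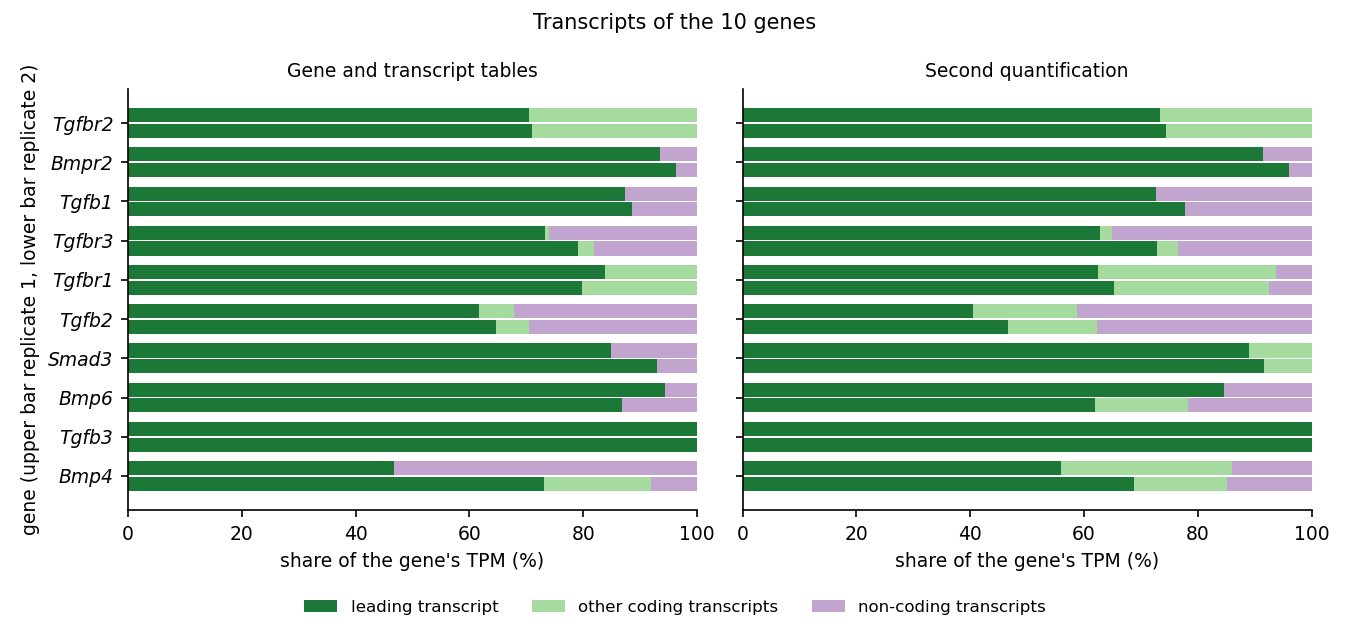
Share of each gene's TPM (horizontal axis, percent) on its leading transcript (dark green), other coding transcripts (light green) and non-coding transcripts (purple), in the gene and transcript tables (left) and the second quantification (right). The upper bar of each pair is replicate 1 and the lower replicate 2. Non-coding transcripts take 53.3% of Bmp4 in replicate 1 and 8.18% in replicate 2 in the first tables.

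The wider pathway was described with 115 other genes grouped by role. Of these, 80 were expressed, against 23.8% of all mouse genes, a share that also counts genes that are not protein-coding. Of the 115 genes, 92 passed the filter. By scaled counts 1 was past 2-fold higher in replicate 1, where 2.22% of all filtered genes were, and 1 past 2-fold lower, where 0.842% were. A ratio below 0 was found for 65 of the 92, against 49.6% of all filtered genes, and the median log2 ratio was -0.14 against 0.0033. Genes that store and release latent TGF-beta were all 14 expressed. Ltbp4, which anchors the latent complex in matrix, had 115 and 107 TPM, the microfibril protein Fbn1 had 95.1 and 101 TPM, and Furin, which cleaves the TGF-beta and BMP precursors, had 45.7 and 47.6 TPM. The integrin subunit Itgb6, part of an activator of latent TGF-beta, was the gene past 2-fold higher in replicate 1, with 630 counts against 204 and a log2 ratio of 1.73. Itgb6 had 7.62 TPM in replicate 1 and 2.43 TPM in replicate 2. The 8 lung markers, epithelial genes among them, summed to 4.72 TPM in replicate 1 and 1.58 TPM in replicate 2, and their part in the Itgb6 value was not tested. Itgb6 also stands in the list of TGF-beta targets.

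BMP antagonists and the proteases that cleave them were expressed for 7 of 16 genes. The classical antagonists were low or near 0: Nog had 3 and 9 counts, Grem1 had 1 and 0, and Chrd had 35 and 65. Fstl1, a secreted follistatin-like protein, led the list at 171 and 192 TPM, with Twsg1, which binds BMPs and chordin, at 29.4 and 33.7 and the procollagen and chordin protease Bmp1 at 31.6 and 26.3. Co-receptors were expressed for 6 of 7 genes, with Nrp1 at 86.8 and 65.6 TPM, Eng as above, and the BMP co-receptor Hjv (listed as Hfe2) at 41.0 and 40.1. Tdgf1 had 0 counts in both libraries. All 16 intracellular regulators were expressed, led by Fkbp1a, which binds the type I receptors, at 196 and 191 TPM, Ppm1a, a Smad phosphatase, at 91.5 and 97.2, and Nedd4l at 44.6 and 35.5.

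Known targets were present for both branches. All 12 TGF-beta targets were expressed, and 10 of 12 had a ratio below 0, beside 49.6% of all filtered genes, with a median log2 ratio of -0.34. Acta2, smooth muscle actin, had 341 TPM in replicate 1 and 631 TPM in replicate 2 (log2 ratio -0.97), Col1a1 had 309 and 405, Postn had 252 and 302, and Fn1 had 209 and 216. These genes are also made by fibroblasts and mural cells, and fibroblast markers moved the same way (7 of 8 with a ratio below 0, median -0.54) while mural markers had 6 of 8 below 0 with a median of -0.10. Their part in the result was not tested. Col1a1 is in both the target and the fibroblast list. Of the 11 BMP targets 10 were expressed, with a median of -0.09. Id3 had 41.3 and 41.1 TPM, Id1 had 24.8 and 32.1, Id2 had 13.2 and 14.9, and the inhibitory Smad7 had 14.1 and 16.1. Msx2 was below the threshold with 19 and 15 counts.

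**Figure D4:**
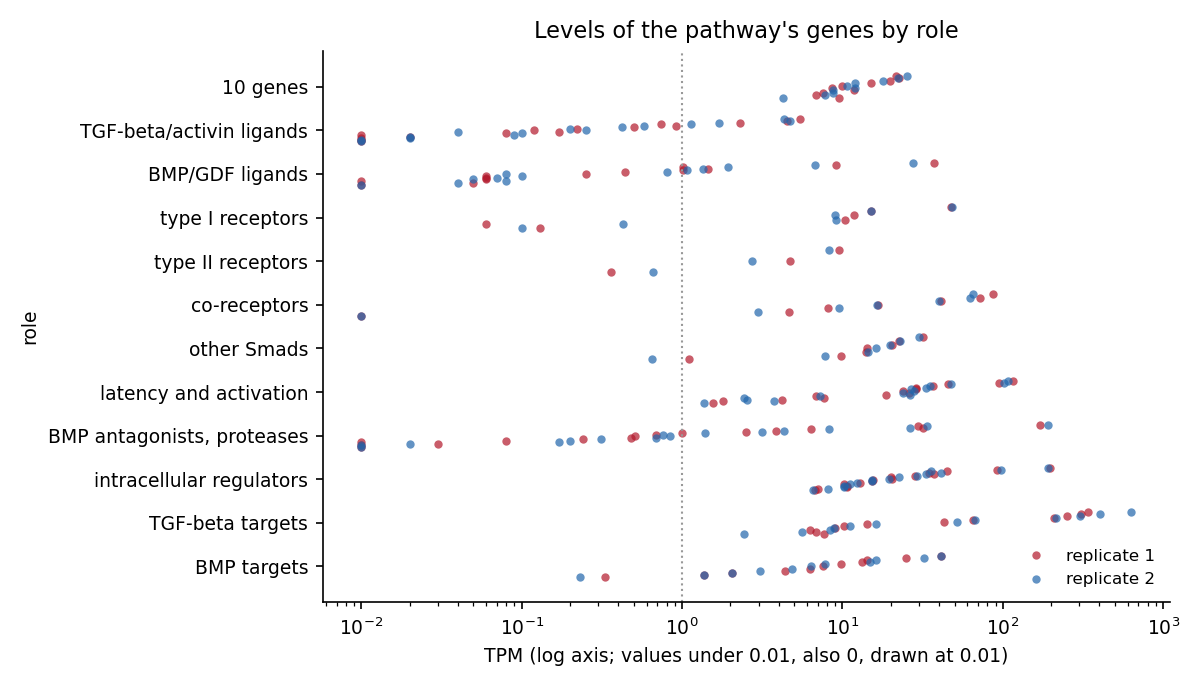
TPM (horizontal log axis) of the 10 genes and of 115 other pathway genes by role (vertical axis), with replicate 1 in red and replicate 2 in blue; some genes stand in more than 1 role. The dotted line marks a TPM of 1. The 10 genes lie between 4.28 and 25.1 TPM in single hearts, while ligands and BMP antagonists spread down to 0.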

How the data were processed

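Per the file headers and the deposited notes, the authors made expected counts and TPM per gene and transcript from a transcriptome alignment (mm10, GENCODE M21), in columns named as RSEM writes them. The second quantification has estimated counts and TPM per transcript that the authors made from reads and an index, in columns named as kallisto writes them; these were summed by gene here. Tools and settings behind them are not given in the sources used here. TPM bounds are deposited as a signal whose level is unstated. Per the labels, libraries were stranded and ribosome-reduced, with an RNA input of 300 ng and ERCC spike-ins. It is not stated whether counting used strand. Left out of library sizes were 26248 numbered rows that name no gene (2 and 4 counts, 6.31e-06% and 1.11e-05% of all) and the spike-ins (0.588% and 0.545%).

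Expected counts were rounded, filtered with filterByExpr and TMM-scaled in edgeR 4.0.16 on R 4.3.3, at a prior count of 2; this code recovered known changes when tested on simulated data. Alternative size factors came from DESeq2 1.42.0. A pseudocount of 0.1 was added to TPM before logs. Tables and figures were made in Python 3.11.15 (NumPy 2.4.6, pandas 2.3.3, Matplotlib 3.10.9, SciPy 1.17.1). PCR copies are not independent molecules, so intervals and floors cover counting error only. A count of 0 allows up to 3 counts, 0.0952 CPM in replicate 1 and 0.0839 CPM in replicate 2. With 1 group, no test was made.

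The 10 genes, the role and marker lists and the pairs were chosen with earlier results of these data known. Named are all 10 genes and, of each role list, up to 4 with the highest mean TPM, any past 2-fold and some below 1 TPM. Of 220 listed symbols, 1 was unmatched and 1 was found by an older symbol. TPM of coding transcripts, and TPM in place of counts, were alternatives chosen after seeing the data. Sequences come from the GENCODE M21 transcripts. Tgfb2, Tgfb3, Bmp4, Bmp6, Tgfbr3 and Bmpr2 each overlap another annotated gene, so their counts are uncertain to that extent.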

Additional observations from a re-analysis of the deposited data

How the results depend on the processing

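The median TPM of the 10 genes, 10.3, moved to 16.1 by the second quantification, to 23.4 with TPM rescaled to nuclear protein-coding genes, and to 9.69 on coding transcripts, and was 10.9 and 11.35 with either library left out. All 10 genes stayed expressed at a TPM minimum of 0.5, by the second quantification and with either library alone, and 9 did at a minimum of 5, with Bmp4 below it in replicate 2. No alternative scaling, filter or prior count put a gene of the 10 past 2-fold by counts, and the sign of that ratio changed for Tgfb1 alone, under spike-in scaling and the second counts. TPM in place of counts moved 6 of the 10 ratios by more than 0.5 times the width of their counting interval and turned Bmpr2 (-0.16) to 0.01. All 10 ratios were higher in TPM than by counts. TPM of coding transcripts moved 4 of the 10. The median share of the leading transcript, 84.9%, was 73.6% by the second quantification and 94.4% by expected counts. Among the 115 other pathway genes, the count past 2-fold was 2, and 4 with spike-in scaling (Bmp2, Itgb6, Gdf10, Acta2) and 4 by the second counts (Bmp2, Itgb6, Acvr1c, Acta2). With no filter on low counts, an alternative chosen after seeing the data, it was 9, the 7 added genes having at most 33 counts in either library. The TPM ratio of Bmp4 between the hearts rests on 15.8 counts given to Bmp4-204, by the values above. No paired analysis was possible because both libraries belong to 1 group. With 2 libraries every SD is itself imprecise.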

Other observations

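Promoters of the genes were described from RefSeq windows of 300 bases around each start (GRCm38.p6). They were found for 8 of the 10 genes, with 9 starts in all, since Tgfbr1 has a pair. Their median GC content was 64.0% against 52.7% over 32851 promoters, and they held a median of 23 CpG pairs against 7. On either strand, GGGCGG, the GC box, was in 6 of the 9 (35.7% of all promoters hold it), TATAAA was in 1 (13.6% of all) and CAGAC, part of a Smad-binding sequence, was in 4 (49.6% of all). The start of Tgfbr1 that lies in the second intron of Tgfbr1-201 had 52.0% GC and 3 CpG pairs, against 74.7% and 34 at the upstream start. The transcript that begins there, Tgfbr1-203, took 8.32% of Tgfbr1 TPM in replicate 1 and 6.34% in replicate 2. These matches describe letters in a window and not binding.

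Other annotated genes overlap 6 of the 10 loci, 14 in all and 10 on the opposite strand. The largest counts were those of Txndc5 at Bmp6 (2559 in replicate 1 and 3022 in replicate 2) and Ttll5 at Tgfb3 (597 and 607), both on the opposite strand.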
